A study of Mus musculus with 6 samples.

Results

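The genes described are the 5 subunits of the transcription factor NF-kappaB (Nfkb1, Nfkb2, Rel, Rela and Relb) and 5 genes that restrain or modify it (Bcl3, Nfkbia, Nfkbie, Nfkbiz and Tnfaip3). They were chosen by name, 10 of the 54532 genes in the deposited table. All 10 had a mean of at least 1 FPKM (fragments per kilobase of gene length, scaled by a divisor for each library) over the libraries and were among the 9218 genes tested. The material was macrophages cultured from the marrow of C57BL/6J mice. There were 3 control libraries and 3 libraries of cells that, after 7 days of culture, received the recombinant chemokine CCL3 for 3 days. The design text can also be read as CCL3 having been present from the first culture, and the handling of control cells over those days was not stated. No genotype, transgene or other agent is named for either group. The title of the series places the cells in the setting of hepatocellular carcinoma and antigen presentation. The labels do not tie the libraries of a group to separate mice or dishes. The spread behind each p-value is therefore that between these samples alone, and it may be technical.

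NF-kappaB is a dimer drawn from 5 related proteins that share a Rel homology domain, which binds DNA. Rela, Relb and Rel carry domains that activate transcription, while Nfkb1 and Nfkb2 encode the precursors p105 and p100, which are processed to p50 and p52. In resting cells the inhibitors IkappaB-alpha (Nfkbia) and IkappaB-epsilon (Nfkbie) hold dimers in the cytoplasm until IKK kinase marks them for breakdown. A slower, noncanonical route through the kinase NIK processes p100 and releases dimers of p52 and RelB. In macrophages, dimers of p50 and RelA switch on genes of inflammation after bacterial products or cytokines are sensed. Several of the genes are themselves targets of NF-kappaB, and so form feedback loops.

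RefSeq promoter windows on GRCm38.p6, from 250 bases before to 50 bases after a transcript start, were matched for 7 of the 10 genes (10 windows, since Nfkb2 and Tnfaip3 have several starts). Nfkb1, Nfkbiz and Relb were not matched. The 10-base kappaB consensus was searched on both strands. It was found in windows of 6 of the 7 genes, against 9.55% of the 27025 genes with a window. Every match is also a match of the looser pattern GGGNNNNNCC, which all 7 genes hold and 53.5% of all genes hold. Windows of these genes were 47.0% to 75.0% G and C, against a median of 52.7% over all windows. The windows of Bcl3 and Nfkb2, which rose with CCL3, are shown beside that of the inhibitor Nfkbia, which did not pass the test, and that of Rela, which had no match. They are written 5′ to 3′ on the strand of the gene, and capitals mark bases covered by a match of the kappaB consensus. A match is a description of letters, not a measured binding site.
Bcl3, minus strand, chr7:19822706-19823005: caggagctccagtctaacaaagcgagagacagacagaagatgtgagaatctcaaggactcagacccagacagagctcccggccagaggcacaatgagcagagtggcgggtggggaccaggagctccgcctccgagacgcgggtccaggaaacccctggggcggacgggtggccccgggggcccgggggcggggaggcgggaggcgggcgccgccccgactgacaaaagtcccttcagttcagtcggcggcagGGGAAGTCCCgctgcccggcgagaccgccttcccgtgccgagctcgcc
Nfkb2, plus strand, chr19:46304487-46304786: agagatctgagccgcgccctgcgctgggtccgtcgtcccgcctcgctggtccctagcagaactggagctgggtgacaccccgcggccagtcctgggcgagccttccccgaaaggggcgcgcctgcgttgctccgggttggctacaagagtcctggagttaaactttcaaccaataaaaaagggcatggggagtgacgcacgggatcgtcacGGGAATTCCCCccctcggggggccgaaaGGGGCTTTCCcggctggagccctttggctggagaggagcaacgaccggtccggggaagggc
Nfkbia, minus strand, chr12:55492598-55492897: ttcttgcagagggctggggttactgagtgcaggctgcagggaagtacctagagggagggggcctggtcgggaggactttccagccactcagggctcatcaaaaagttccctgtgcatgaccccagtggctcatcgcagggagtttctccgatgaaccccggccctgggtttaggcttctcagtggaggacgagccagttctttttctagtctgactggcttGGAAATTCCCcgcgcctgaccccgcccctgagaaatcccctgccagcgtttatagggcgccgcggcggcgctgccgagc
Rela, plus strand, chr19:5637291-5637590: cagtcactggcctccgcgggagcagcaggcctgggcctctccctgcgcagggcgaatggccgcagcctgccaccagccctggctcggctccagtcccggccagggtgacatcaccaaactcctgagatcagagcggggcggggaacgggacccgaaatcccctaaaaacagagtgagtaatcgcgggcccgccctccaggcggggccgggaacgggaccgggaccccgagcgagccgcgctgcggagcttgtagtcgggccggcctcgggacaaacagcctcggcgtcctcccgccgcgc

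Counting bases from the transcript start, the single place in Bcl3 begins at base 3 and matches on both strands. With bases before the start counted as negative, the places in the Nfkb2 window shown begin at -39 and -11, and that in Nfkbia at -29. Nfkb2 windows at other starts also held matches. The window from base 46305445 held GGAATGTCCC at -236 and GGGACTTTCC at 11, and that from 46305680 held GGGACTTTCC at -225. The other matched genes were Rel, with GGGAAATCCC at -92, Tnfaip3, with GGGACACCCC at -125 and GGAAATCCCC at -12 of its upstream start, and Nfkbie, with GGGGGATTCC at -106. Of the 6 genes with a match, 2 rose with CCL3 and 4 did not pass the test, and Rela, with none, also rose.

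Fragments recovered from the deposited values summed to between 17399194 and 18609737 per library. On the first principal component, which held 65.6% of the variance, control replicate 3 had a score of -16.3 against -33.3 and -33.2 in the other controls. All 10 macrophage markers checked were tested, and their summed level was 17097 to 28920 FPKM in control and 11258 to 15704 FPKM with CCL3. Of these markers 3 rose (Cd68, Spi1 and Mrc1), 2 fell (Lyz2 and Cd14, with log2 fold changes of -0.91 and -0.94) and the other 5 did not pass, among them Csf1r, the receptor for the macrophage growth factor, at 809 ± 133 FPKM in control and 711 ± 157 with CCL3 (mean ± SD, n = 3 per group). Markers of other cell types were far lower. Of 10 markers each, 3 dendritic cell, 4 neutrophil, 2 T or NK cell, 2 B cell, 5 platelet or erythroid and 3 fibroblast markers passed the filter, and 3, 1, 2, 0, 4 and 3 of them rose, in the same order. Of the neutrophil markers 1 fell. Over all tested genes 18.0% rose and 14.5% fell. Summed levels in control and CCL3 libraries were 3.38 to 4.79 and 8.12 to 9.997 FPKM for dendritic cells and 20.6 to 40.0 and 30.2 to 52.2 for neutrophils. They were 4.75 to 10.9 and 15.1 to 22.1 FPKM for T or NK cells and 13.1 to 21.2 and 12.8 to 25.1 for B cells. For platelets or erythroid cells they were 20.3 to 38.3 and 40.5 to 55.3 FPKM, and for fibroblasts 5.39 to 14.6 and 19.6 to 22.2. Ccl17, Ly6g, Cd8a, Ncr1, Pax5, Hba-a2 and Lum, each a defining marker, were listed at 0 in every library. Hba-a1, a close copy of Hba-a2, rose from 0.880 ± 0.304 to 3.14 ± 1.23 FPKM, and the platelet genes Ppbp, Itga2b and Gp9 and the stromal genes Acta2, Col1a1 and Col1a2 rose as well. The dendritic, T or NK, platelet or erythroid, and fibroblast sums were higher in every CCL3 library than in any control library. The macrophage sum was lower in every CCL3 library. Most of it was Lyz2, with means of 20061 FPKM in control and 10558 FPKM with CCL3. The T or NK sum was mostly Il7r and Cd4, while Cd3e, Cd3d and Trac had means of at most 0.0220 FPKM. The platelet or erythroid sum was mostly Pf4, which did not pass (adjusted p = 0.305, limma). Of the dendritic genes, Batf3, Fscn1 and Ccr7 rose. Below the filter, Siglech was higher in mean and Cd209a, Flt3, Zbtb46, Clec9a and Xcr1 were lower. The part of these sums in the results below was not tested.

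In FPKM as deposited, CCL3-treated macrophages held more transcript of Bcl3, Relb, Nfkb2 and Rela and less of Nfkb1 than control macrophages. Nfkbia, Nfkbie, Nfkbiz, Tnfaip3 and Rel did not pass the test. With TPM scaling, plain fragment totals or quantile normalization, given below, neither Nfkb2 nor Rela passed. Relb did not pass with TPM scaling (adjusted p = 0.130, limma). As deposited, 4 of the 10 genes rose and 1 fell, where over all tested genes 18.0% rose and 14.5% fell (limma on log2(FPKM + 1), adjusted p under 0.05). In the same 5 genes the libraries of the groups did not overlap, which held for 48.6% of all tested genes. The median log2 fold change of the 10 genes was 0.11, against 0.0066 over all tested genes. The 4 risen genes have transcripts rich in G and C, and after correction for GC content, an alternative chosen after the data had been seen, 0 of the 10 genes passed, where 13.0% of all tested genes rose and 13.4% fell. Without control replicate 3, Bcl3, Relb and Nfkb2 passed as higher and Nfkb1 as lower, with log2 fold changes of 0.92, 0.71, 0.57 and -0.61, and Rela did not pass (0.38, adjusted p = 0.0698, limma). Such bulk values cannot tell fewer cells of a type from less RNA per cell.

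**Figure D1:**
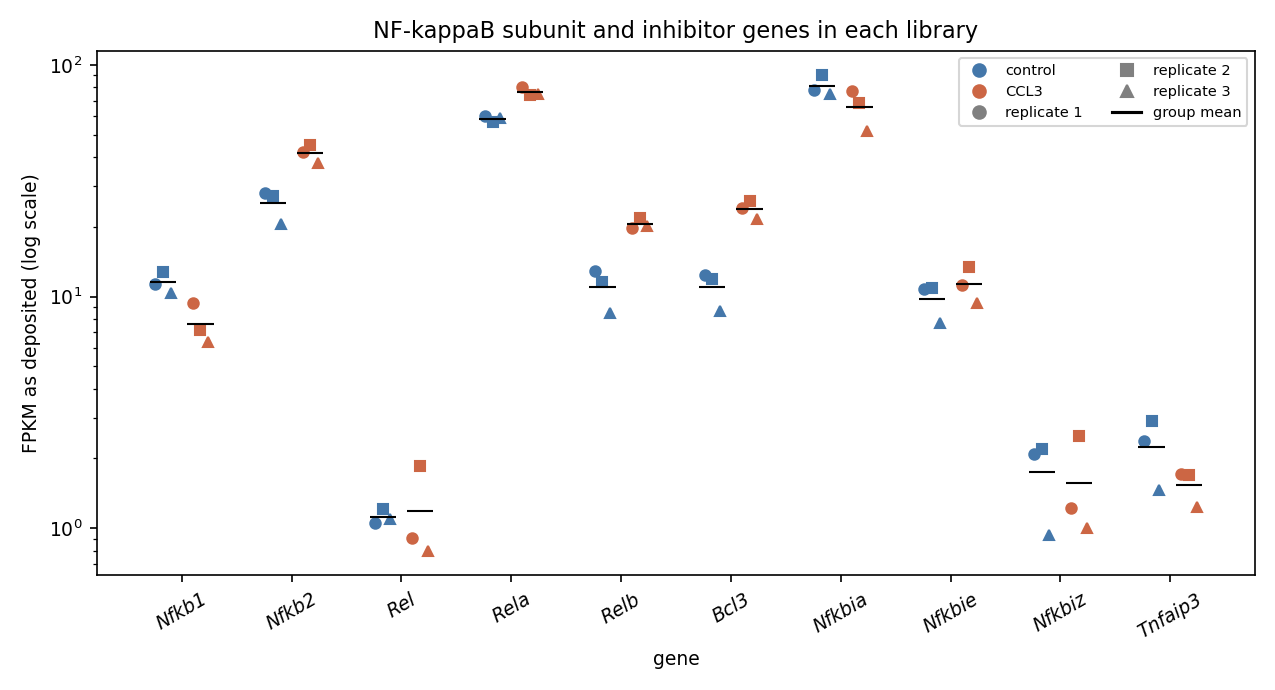
FPKM as deposited (log scale) of the 10 genes in each of the 6 libraries, with control in blue, CCL3 in orange, symbols for the replicate number and a line at each group mean. Bcl3, Relb, Nfkb2 and Rela lie higher in all 3 CCL3 libraries than in any control library and Nfkb1 lies lower, while the other 5 genes overlap.

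Relb encodes the activating subunit of the noncanonical pathway. It had 12.9, 11.5 and 8.51 FPKM in control replicates 1 to 3 and 19.7, 21.9 and 20.2 FPKM in CCL3 replicates 1 to 3. The CCL3 libraries lay within a narrow band above all controls, and control replicate 3 was the lowest. Relb rose 1.88-fold in mean FPKM, from 11.0 ± 2.23 to 20.6 ± 1.12 (SD, n = 3 per group). On the log2 scale this was 0.87 ± 0.17 SE (adjusted p = 0.00815, limma). The gene lies at chr7:19606217-19629438 (mm10, minus strand, ENSMUSG00000002983), and between 706 and 1459 fragments per library stood behind its values.

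Nfkb2 encodes p100, which is both the precursor of the partner of RelB and an inhibitor of it. Control replicates 1 to 3 had 28.0, 27.2 and 20.6 FPKM and CCL3 replicates 1 to 3 had 42.1, 45.2 and 37.7 FPKM. Again no CCL3 library reached down to the control range, and each replicate numbered 3 was the lowest of its group. The mean rose 1.65-fold from 25.3 ± 4.05 to 41.7 ± 3.73 FPKM, or 0.71 ± 0.16 SE on the log2 scale (adjusted p = 0.0134, limma). With TPM scaling, plain fragment totals and quantile normalization Nfkb2 was at 0.19, 0.36 and 0.49 and did not pass (adjusted p = 0.433, 0.122 and 0.0886, limma). It lies at chr19:46304737-46312090 (plus strand, ENSMUSG00000025225). It shares 4 bases with Psd, a gene on the other strand at 0.894 to 1.66 FPKM.

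Rela encodes p65, the main activating subunit of the canonical pathway. It had 60.2, 56.5 and 58.7 FPKM in control replicates 1 to 3 and 80.1, 74.1 and 74.9 FPKM in CCL3 replicates 1 to 3. Replicates were tight and the groups separate, and the difference was the smallest of the 5 that passed. Mean FPKM was 58.5 ± 1.83 and 76.4 ± 3.25, 1.31-fold higher with CCL3, with a log2 fold change of 0.38 ± 0.12 SE (adjusted p = 0.0432, limma). The call was lost when any 1 of the 6 libraries was left out, with log2 fold changes between 0.34 and 0.40. Rescaling to TPM turned its sign, to -0.15 (adjusted p = 0.419, limma). With plain fragment totals and quantile normalization the log2 fold change was 0.028 and 0.0065 (adjusted p = 0.875 and 0.972, limma). Rela lies at chr19:5637483-5648130 (plus strand, ENSMUSG00000024927).

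Nfkb1 encodes p105, the precursor of p50, and p105 also acts as an inhibitor. It had 11.4, 12.8 and 10.4 FPKM in control replicates 1 to 3 and 9.36, 7.14 and 6.40 FPKM in CCL3 replicates 1 to 3. It was the only subunit lower in all 3 CCL3 libraries than in any control library. Mean FPKM fell from 11.5 ± 1.20 to 7.63 ± 1.54, with a log2 fold change of -0.55 ± 0.17 SE and an adjusted p of 0.0379 (limma). The call was lost without control replicate 1 or 2 or CCL3 replicate 2 or 3 (adjusted p = 0.10, 0.156, 0.0860 and 0.109, limma), and with no filter on low genes (adjusted p = 0.0833). Nfkb1 lies at chr3:135584655-135691547 (minus strand, ENSMUSG00000028163).

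Rel encodes c-Rel, a subunit best known from lymphocytes. It was the lowest of the 10 genes, with 1.05, 1.21 and 1.09 FPKM in control replicates 1 to 3 and 0.909, 1.86 and 0.794 FPKM in CCL3 replicates 1 to 3. CCL3 replicate 2 lay above all controls and the other CCL3 libraries below them. The log2 fold change was 0.02 ± 0.20 SE (adjusted p = 0.955, limma), with a 95% interval from -0.44 to 0.47, and between 86 and 239 fragments per library stood behind it.

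Bcl3 encodes an atypical IkappaB protein that binds p50 or p52 dimers in the nucleus, where it can activate or repress transcription. It had 12.4, 11.9 and 8.62 FPKM in control replicates 1 to 3 and 24.1, 25.7 and 21.6 FPKM in CCL3 replicates 1 to 3. The lowest CCL3 library stood well above the highest control library. Bcl3 rose 2.17-fold in mean FPKM, from 11.0 ± 2.04 to 23.8 ± 2.07 (SD, n = 3 per group), the largest change of the 10 genes. Its log2 fold change was 1.06 ± 0.17 SE and its adjusted p 0.00450 (limma). It passed in each fit with 1 library left out, with log2 fold changes from 0.92 to 1.15. It lies at chr7:19808462-19822770 (minus strand, ENSMUSG00000053175), with 456 to 1093 fragments per library. The antisense genes Gm16174 and Gm16175 lie inside it on the other strand, at no more than 1.74 and 0.194 FPKM, and whether counting used the strand was not stated in the sources.

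Nfkbia, the classical inhibitor and a fast feedback target of NF-kappaB, was the highest of the 10 genes in control cells. It had 77.8, 90.7 and 75.1 FPKM in control replicates 1 to 3 and 77.3, 68.6 and 51.7 FPKM in CCL3 replicates 1 to 3. CCL3 replicate 1 fell inside the control range and the other CCL3 libraries lay below it. The log2 fold change of -0.31 ± 0.18 SE did not pass (adjusted p = 0.199, limma), and its 95% interval ran from -0.72 to 0.09. Under TPM scaling, plain fragment totals and quantile normalization Nfkbia passed as lower, with log2 fold changes of -0.85, -0.66 and -0.68 (adjusted p = 0.0120, 0.0282 and 0.0387, limma).

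Nfkbie, a second cytoplasmic inhibitor, had 10.8, 10.9 and 7.70 FPKM in control replicates 1 to 3 and 11.2, 13.4 and 9.39 FPKM in CCL3 replicates 1 to 3. The groups overlapped, and each replicate numbered 3 was the lowest of its group. Its log2 fold change was 0.20 ± 0.18 SE (adjusted p = 0.432, limma). Nfkbiz encodes IkappaB-zeta, a nuclear cofactor induced in activated macrophages. It had 2.08, 2.21 and 0.933 FPKM in control replicates 1 to 3 and 1.22, 2.49 and 1.003 FPKM in CCL3 replicates 1 to 3. Both groups spread over more than their difference in mean, with a log2 fold change of -0.10 ± 0.27 SE (adjusted p = 0.796, limma).

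Tnfaip3 encodes A20, a ubiquitin-editing enzyme that ends signalling to IKK. It had 2.38, 2.91 and 1.46 FPKM in control replicates 1 to 3 and 1.71, 1.69 and 1.23 FPKM in CCL3 replicates 1 to 3. Control replicate 3 lay among the CCL3 libraries, and the other controls lay above them. The log2 fold change was -0.33 ± 0.20 SE (adjusted p = 0.221, limma). Without control replicate 3 it was -0.52, and under TPM scaling it was -0.84 and passed (adjusted p = 0.0315, limma). Across the 10 genes, control replicate 3 was the lowest control library for 8 genes, and CCL3 replicate 3 was the lowest CCL3 library for 8 genes.

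The order of the levels, in FPKM per deposited gene length, changed at the top and in the middle. In control cells Nfkbia led, followed by Rela and Nfkb2, each separate from the next over its 3 libraries. Nfkb1, Relb, Bcl3 and Nfkbie followed at 9.78 to 11.5 FPKM, with overlap between neighbours, and Tnfaip3, Nfkbiz and Rel came last at 1.12 to 2.25 FPKM, also overlapping. With CCL3, Rela and Nfkbia overlapped at the top at 76.4 and 65.9 FPKM. Nfkb2 followed at 41.7 FPKM and was separate from Bcl3, while Bcl3 and Relb overlapped at 23.8 and 20.6 FPKM. Nfkbie at 11.3 FPKM and Nfkb1 at 7.63 FPKM were separate from their neighbours, and the last 3 genes overlapped.

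These levels depend on the length the authors used. Nfkb1 was scaled by 12061 bases, whereas its longest coding transcript in GENCODE M21 has 4117 bases, a ratio of 2.93. Per longest coding transcript Nfkb1 stood at 33.8 FPKM in control, next after Nfkbia and Rela, and at 22.4 FPKM with CCL3, below Relb at 36.2, Nfkb2 at 35.6 and Bcl3 at 31.9. The corresponding length ratio was 1.76 for Relb, 1.63 for Tnfaip3 and 0.855 for Nfkb2, and it was 1 for Rela and Rel. The choice of length alters levels between genes but not the ratio of the same gene between libraries.

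The ratio of a pair of genes within 1 library does not depend on how that library was scaled, but pairs can differ in GC content: Rela and Nfkb2 have 59.4%, Tnfaip3 47.1% and Nfkb1 44.9%. The log2 ratio of Nfkb2 to Nfkb1 was 1.30, 1.09 and 0.99 in control replicates 1 to 3 and 2.17, 2.66 and 2.56 in CCL3 replicates 1 to 3. The groups were wide apart: from a mean of 1.13 ± 0.16 to 2.46 ± 0.26 (SD, n = 3 per group), a difference of 1.34. The ratio of Nfkb1 to Rela moved the other way, from -2.35 ± 0.18 to -3.34 ± 0.23. The ratios of Bcl3, Relb and Nfkb2 to Rela were higher by 0.75, 0.55 and 0.35 with CCL3. The ratio of the inhibitor Nfkbia to Rela was lower by 0.70 on this scale, from 0.47 ± 0.18 to -0.23 ± 0.26, and that of Tnfaip3 to Rela lower by 0.89. In the 8 ratios with an exact p of 0.10 the groups did not overlap, and 3 against 3 libraries allow no smaller p (exact permutation test, two-sided). Adjusted over the 12 ratios computed, p was 0.15 for these 8, so none passed. GC-corrected differences, an alternative added after the data had been seen, were taken on log2(FPKM + 1). Without correction that scale gave 1.26 for Nfkb2 to Nfkb1, -0.93 for Nfkb1 to Rela and -0.69 for Nfkbia to Rela. It gave 0.49, 0.69 and 0.33 for Relb, Bcl3 and Nfkb2 to Rela, -0.71 for Tnfaip3 to Rela and 0.24 for Nfkbia to Nfkb1. With correction the difference was 0.51 for Nfkb2 to Nfkb1, -0.19 for Nfkb1 to Rela and -0.21 for Nfkbia to Rela. It was 0.65, 0.57 and 0.33 for Relb, Bcl3 and Nfkb2 to Rela, and it turned sign for Tnfaip3 to Rela (0.071) and Nfkbia to Nfkb1 (-0.026). The ratios of Rel, Nfkbie and Nfkbiz to Rela and of Relb to Rel overlapped between groups (exact p = 0.40, 0.60, 0.20 and 0.20).

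**Figure D2:**
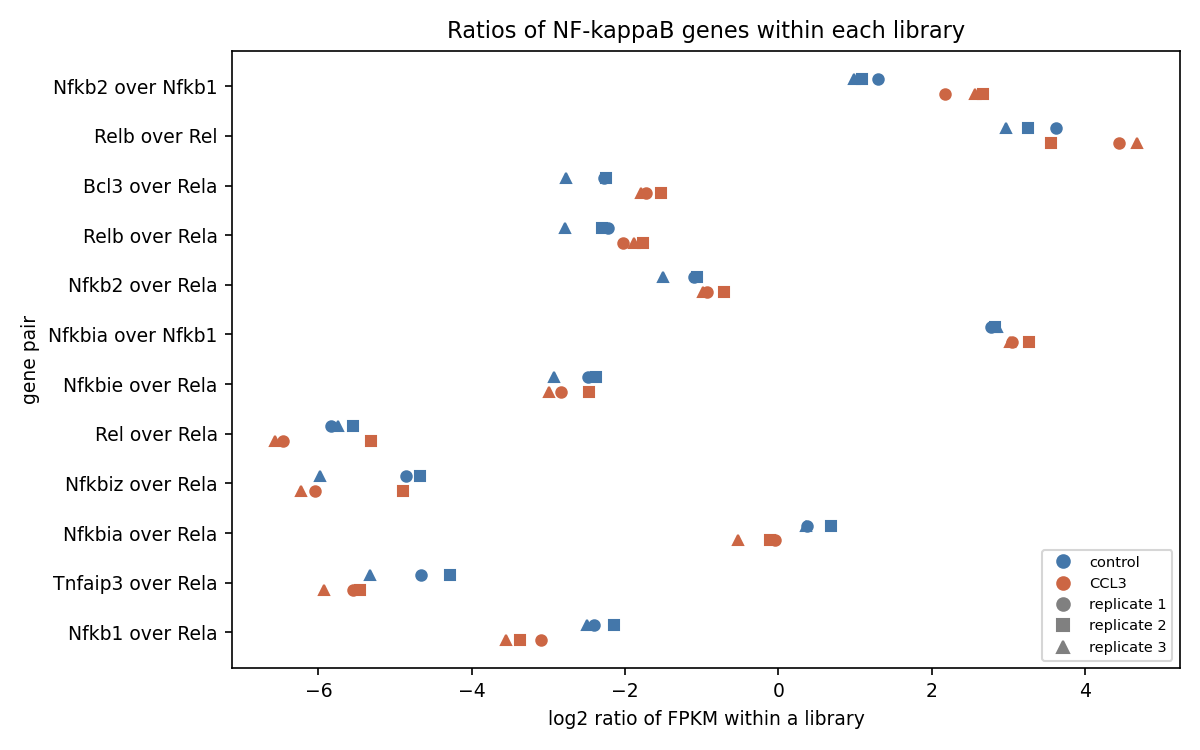
Log2 ratio of FPKM of 12 gene pairs within each library, with control in blue, CCL3 in orange and symbols for the replicate number. The ratio of Nfkb2 to Nfkb1 runs from 0.99 to 1.30 in control and from 2.17 to 2.66 with CCL3, and that of Nfkbia to Rela is above 0 in every control library and below 0 in every CCL3 library.

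The fold changes moved with the GC content of the transcripts over the whole table. With the tested genes split by GC content into 10 bins of equal size, in the bin with the highest GC content 51.0% rose and 1.41% fell, with a median log2 fold change of 0.54. In bin 4, from 47.3% to 49.2% GC, 4.45% rose and 27.1% fell, with a median of -0.27. Below that the trend turned, with medians of -0.23, -0.20 and -0.04 in bins 3, 2 and 1. Bcl3 (62.6% GC), Nfkb2 (59.4%) and Rela (59.4%) belong to bin 10 and Relb (56.8%) to bin 9, while Nfkb1 (44.9%) belongs to bin 2, where 4.23% rose and 21.0% fell. After correction, log2 fold changes were 0.49 ± 0.21 SE for Relb, 0.41 ± 0.22 for Bcl3, 0.17 ± 0.21 for Nfkb2 and -0.16 ± 0.13 for Rela. They were -0.34 ± 0.18 SE for Nfkb1 and -0.37 ± 0.18 for Nfkbia. The smallest adjusted p was that of Relb, 0.115 (limma), with a 95% interval from 0.0077 to 0.96. Relb and Bcl3 were then the highest of the 10 genes and Nfkbia and Nfkb1 the lowest, while Tnfaip3, at -0.33 before correction, was at -0.09. Nfkb2 and Rela have nearly the same GC content. Their log2 ratio was -1.22 ± 0.25 in control and -0.88 ± 0.14 with CCL3 (SD, n = 3 per group). The groups did not overlap, but their nearest libraries lay at -1.06 and -0.99 (exact permutation p = 0.10, adjusted p = 0.15). The difference of 0.35 was 0.20 without control replicate 3.

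**Figure D3:**
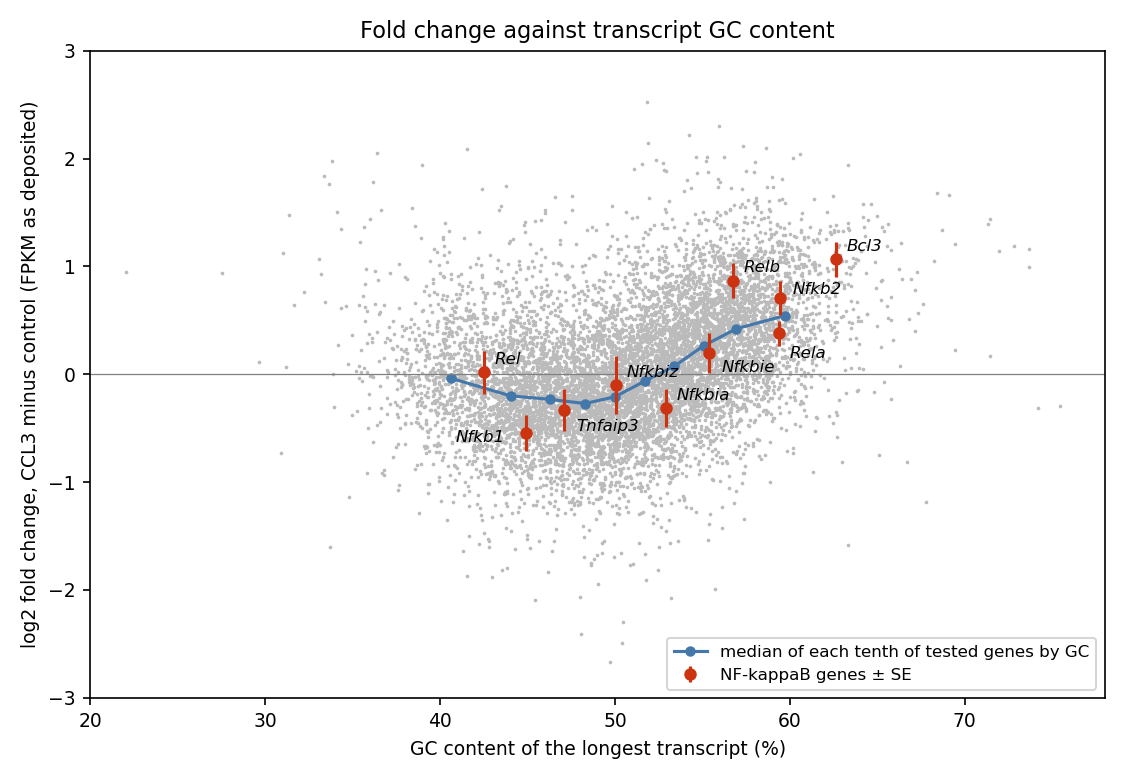
Log2 fold change (CCL3 minus control, FPKM as deposited) against the GC content of the longest transcript in percent, for all tested genes in grey, the median of each of 10 GC bins in blue and the 10 NF-kappaB genes in red with their SE. Relb, at 56.8% GC, lies above the blue line, and Rela, Nfkb1 and Nfkbia lie below it. Bcl3, at 62.6% GC, lies to the right of the last point of the line, at 59.7%, and higher than that point.

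Scaling moved the split between higher and lower genes. With TPM scaling 1 of the 10 genes rose (Bcl3) and 3 fell (Nfkb1, Nfkbia and Tnfaip3), where over all tested genes 5.50% rose and 43.2% fell. With plain fragment totals 2 rose (Bcl3 and Relb) and 2 fell (Nfkb1 and Nfkbia), against 8.71% and 33.1%. With quantile normalization the same 2 rose and the same 2 fell, against 14.8% and 14.0%. Over all 9218 tested genes the median moved to -0.48 on the log2 scale with TPM scaling and to -0.28 with plain totals. Bcl3 passed as higher and Nfkb1 as lower under each of these 3 scalings.

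**Figure D4:**
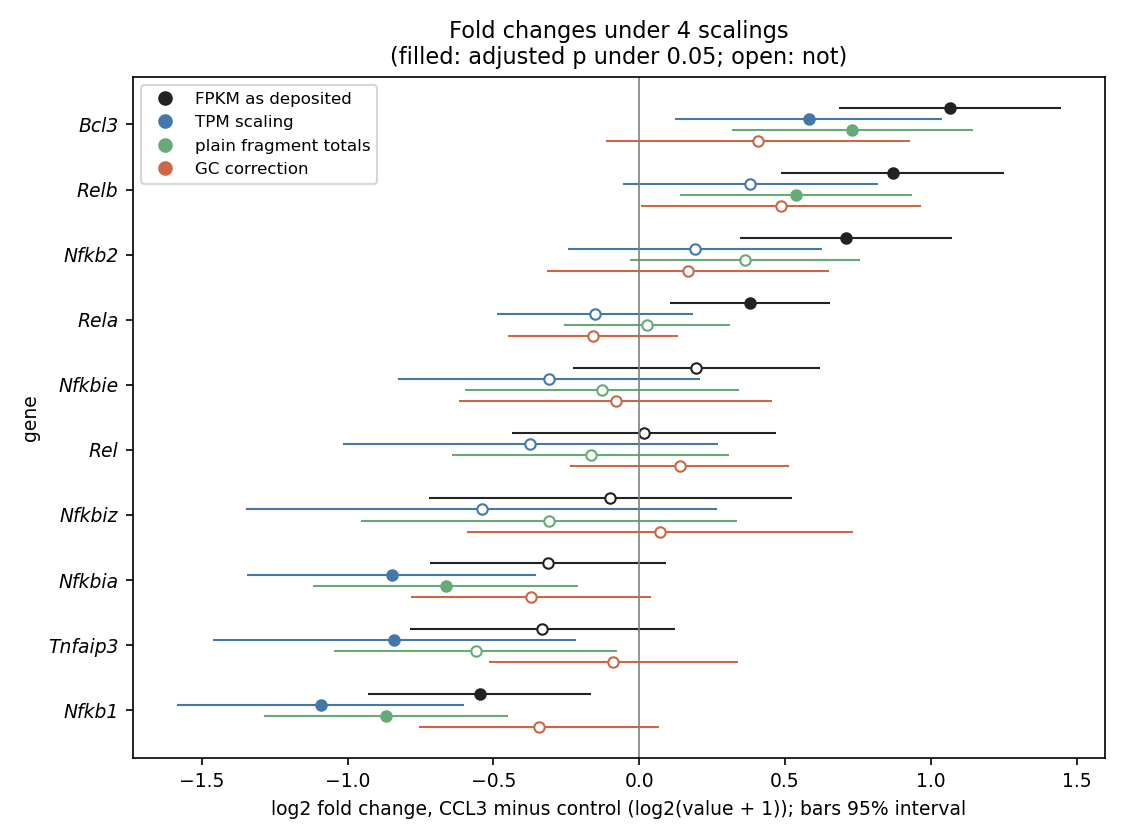
Log2 fold change of the 10 genes on the log2(value + 1) scale with 95% intervals from limma under FPKM as deposited, TPM scaling, plain fragment totals and GC correction. Filled points pass an adjusted p of 0.05 and open points do not: Bcl3 is filled under 3 of the 4 and Nfkb1 under 3 of the 4, and 0 of the 10 are filled after GC correction.

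Upstream of the subunits, 27 of 30 adaptor and kinase genes of the pathway were tested, 1 rose and 4 fell, with a median log2 fold change of -0.23. Over all tested genes the shares were 18.0% and 14.5%, so the 4 that fell are close to the background. With TPM scaling 0 rose and 16 fell, where 5.50% and 43.2% of all tested genes did, and with plain totals 0 and 14, where 8.71% and 33.1% did. After GC correction 0 rose and 2 fell, where 13.0% and 13.4% of all tested genes did. Traf3, an adaptor that keeps the noncanonical kinase NIK low, fell from 4.70 ± 0.788 to 2.33 ± 0.395 FPKM (log2 fold change -0.77, adjusted p = 0.0114, limma). Card9, an adaptor of C-type lectin receptors, fell from 29.6 ± 2.68 to 17.4 ± 2.53 FPKM (log2 fold change -0.74), and Tirap, a Toll-like receptor adaptor, from 2.48 ± 0.617 to 1.18 ± 0.178 FPKM. The TNF receptor adaptor Tradd rose from 25.4 ± 3.59 to 42.0 ± 4.92 FPKM. After GC correction Traf3 and Card9 passed (adjusted p = 0.0169 and 0.00516, limma) and Tirap and Tradd did not (adjusted p = 0.0702 and 0.0849). The gene of NIK itself, Map3k14, had 3.56 ± 0.0770 FPKM in control and 3.39 ± 1.43 in CCL3 libraries, a difference that did not pass (adjusted p = 0.748, limma). It was named after its values were seen, for its role beside Traf3.

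Of 24 other inhibitors, deubiquitinases and their partners 21 were tested, 9 rose and 4 fell, where 18.0% and 14.5% of all tested genes did, with a median of 0.41. Nfkbil1, an IkappaB-like gene, rose from 9.32 ± 0.343 to 21.9 ± 1.84 FPKM (log2 fold change 1.15). Rbck1, a part of the linear ubiquitin ligase that promotes signalling, rose from 31.5 ± 2.63 to 67.4 ± 13.3 FPKM (log2 fold change 1.06). Not every gene of the list restrains signalling, so its counts and median are not those of inhibitors alone. Tax1bp1, a partner of A20, rose from 1.72 ± 0.320 to 4.18 ± 1.73 FPKM. Nfkbid, which encodes the nuclear protein IkappaB-NS, fell from 8.24 ± 0.178 to 4.50 ± 1.24 FPKM (log2 fold change -0.77). All 4 passed after GC correction (adjusted p = 0.0256, 0.0210, 0.0116 and 0.00575, limma), where 4 of the 21 rose and 3 fell, against 13.0% and 13.4% of all tested genes. With TPM scaling 2 rose and 7 fell, against 5.50% and 43.2%, and with plain totals 2 and 5, against 8.71% and 33.1%.

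Among receptors and ligands that feed the pathway 13 of 19 genes were tested, 1 rose and 3 fell, against 18.0% and 14.5% of all tested genes, with a median of 0.21. With TPM scaling 0 rose and 4 fell, against 5.50% and 43.2%, and with plain totals 1 and 4, against 8.71% and 33.1%. After GC correction 1 rose, Cd40, and 3 fell, against 13.0% and 13.4%. Ltbr, the lymphotoxin beta receptor, which drives the noncanonical route, rose from 51.6 ± 3.35 to 92.9 ± 10.7 FPKM (log2 fold change 0.83), but not after GC correction (adjusted p = 0.0998, limma). Tnfsf9, Tnf and the lipopolysaccharide co-receptor gene Cd14 fell, with log2 fold changes of -1.81, -1.19 and -0.94, and passed after GC correction as well (adjusted p = 0.00699, 0.0151 and 0.00993, limma). Of 40 genes known as targets of NF-kappaB, 27 were tested, 6 rose and 2 fell, against 18.0% and 14.5% of all tested genes, with a median of 0.13. Cd83 and Tnf fell, the former with a log2 fold change of -1.91. The adhesion gene Vcam1 rose from 0.946 ± 0.895 to 3.36 ± 0.171 FPKM and the chemokine gene Ccl5 from 5.06 ± 0.634 to 12.1 ± 2.34 FPKM. With TPM scaling 2 target genes rose and 9 fell, against 5.50% and 43.2%, and with plain totals 3 and 6, against 8.71% and 33.1%. After GC correction 4 target genes rose and 2 fell, against 13.0% and 13.4%, with a median of 0.0034. The lists overlap: Tnf, Cd40 and Il1b are also in the list of receptors and ligands, Tnip1 in that of inhibitors, and Birc3 and Traf1 in that of adaptors and kinases.

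Relb and Bcl3 lie on the same strand of chromosome 7, 179023 bases apart, on either side of the cluster of apolipoprotein genes around Apoe. Of the 13 genes between them 5 were tested and 3 rose: Apoe (log2 fold change 1.81), Apoc1 (1.41) and Clptm1 (0.66), where 18.0% of all tested genes rose. Tomm40 (0.59) and Nectin2 (0.30) did not pass (adjusted p = 0.0860 and 0.141, limma). In Apoe, as in Relb and Bcl3, control replicate 3 was the lowest library, at 2862 FPKM against 5826 and 8443 FPKM in the other controls. In Tomm40 it was the highest control library.

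As a description of likeness, the protein-coding genes whose log2(FPKM + 1) followed Bcl3 most closely over the 6 libraries were Abtb1, Rasa4 and Cxcl16, with Pearson r of 0.999, 0.997 and 0.996 among 8465 genes. Those closest to Relb were Tusc1, mt-Nd4l and Rasa4, with r of 0.996, 0.995 and 0.994. The 6 libraries fall into the groups of the design, so these values mostly carry the difference between them, and no test was made.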

How the data were processed

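Messenger RNA was sequenced from 6 libraries; libraries were made with a SMARTER mRNA kit, per the labels' protocols. The authors deposited 1 table of FPKM values, with gene lengths; the genome was mm10, per the submitters' processing notes, and how reads were aligned and counted, and with which annotation, is not given in the sources used. FPKM times length was a whole multiple of 1 step in 100% of values (tolerance 0.02), which gave the fragments per gene. Median-ratio factors of the deposited values were 1 in all 6 libraries, so median-ratio scaling left them as they were. The divisor behind the deposited values was not the fragment total. Total over divisor was 0.895, 0.851 and 0.868 in control replicates 1 to 3 and 1.10, 1.05 and 1.20 in CCL3 replicates 1 to 3. Deposited values of CCL3 libraries therefore stood higher against control than plain totals would place them. Levels of genes with overlapping neighbours or close copies are uncertain.

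Because FPKM is not a count, log2(FPKM + 1) was tested in limma 3.58.1 under R 4.3.3, with a variance trend and Benjamini-Hochberg adjustment over the 9218 genes whose mean reached 1 FPKM (threshold 0.05, two-sided). A fold change on this scale understates that of low genes. GC content came from the longest GENCODE M21 transcript; correction subtracted from each library a spline (5 degrees of freedom) of its deviation from the gene mean. In 3 alternatives values were rescaled to TPM, to plain fragment totals or by quantiles; the others are in the closing section. The steps were tested on simulated data. Pathway lists were described by counts and medians. Named were all 10 genes, the up to 4 largest called changes of each pathway list, the 3 genes most like each of Bcl3 and Relb, and neighbours; Map3k14 was added later. The genes and lists were chosen with earlier results of these data known.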

Additional observations from a re-analysis of the deposited data

How the results depend on the processing

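Of the 10 genes, 4 were called higher and 1 lower. The corrections for GC content and length were chosen after the data had been seen. Called higher were 1 with TPM scaling, 2 with plain totals, 2 with quantile normalization, 0 with GC correction and 0 with GC and length correction. Called lower were 3, 2, 2, 0 and 0 in the same order, 0 with no filter, and 0 to 1 with 1 library left out. Leaving out 1 library lost the call of Rela each time and no other of the 4. Over all genes 2990 were called, 4493 with TPM scaling and 1128 (without control replicate 2) to 3142 (without control replicate 3) with 1 library left out. With GC and length correction 2479 of 9212 genes were called, and with no filter 2007 of 20404.

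Deviations of same-numbered libraries correlated at -0.06, 0.39 and 0.50 for numbers 1 to 3. Those of differently numbered libraries correlated at values from -0.54 to 0.41. The main fit did not take the numbers as pairs, and whether they mark pairs was not tested. With a replicate block 3897 of 9218 genes were called, and the calls among the 10 genes did not change. With the block and GC correction together 1 of the 10 genes was called higher, Bcl3 (adjusted p = 0.0265, limma), and 1 lower, Nfkbia (adjusted p = 0.0283, limma). That fit called 3541 of 9212 genes in either direction.

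Signs turned for Rela with TPM scaling (-0.15), GC correction (-0.16, also with the block) and GC and length correction (-0.17), and otherwise only for genes that had not passed. Rel was -0.0062 with a pseudocount of 0.1, -0.37 with TPM scaling, -0.17 with plain totals and -0.19 to 0.14 with 1 library left out. Nfkbie was -0.31 with TPM scaling, -0.13 with plain totals, -0.081 after GC correction (also with the block) and -0.086 after GC and length correction. Nfkbiz was 0.015 with quantile normalization, -0.34 to 0.058 with 1 library left out, 0.070 after GC correction (also with the block) and 0.10 after GC and length correction. With a pseudocount of 1 or 1 library left out, 0 of the 12 ratios turned sign. Taking paired differences leaves the mean difference as it was, so that setting could not turn a sign. With GC correction 5 ratios turned sign: Rel, Nfkbie, Nfkbiz and Tnfaip3 to Rela became 0.30, 0.078, 0.23 and 0.071, and Nfkbia to Nfkb1 became -0.026. The cause of these changes was not tested. Rel and Nfkbiz rest on 73 to 239 fragments per library.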

Other observations

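The deposited table marks 10 genes as carrying the Rel homology domain: the 5 NF-kappaB subunits and 5 genes of the NFAT family. These values were looked at after those of the NF-kappaB genes were known. Of the 5 NFAT genes 3 were tested and 0 passed with FPKM as deposited (limma; 1 of the 3 had an unadjusted p under 0.05 and 1 passed after GC correction). Nfatc2 had 3.49, 4.63 and 5.17 FPKM in control replicates 1 to 3 and 3.51, 2.29 and 1.56 FPKM in CCL3 replicates 1 to 3, so the groups overlapped by CCL3 replicate 1. Its log2 fold change was -0.68 ± 0.23 SE (adjusted p = 0.0524, limma), and -0.95 after GC correction (adjusted p = 0.0199). Nfatc3 was lower in all 3 CCL3 libraries than in any control library, at 2.09 ± 0.0376 FPKM in control and 1.52 ± 0.0978 with CCL3 (mean ± SD, n = 3 per group), and did not pass (adjusted p = 0.109, limma). Nfatc1 had 11.0 ± 0.509 and 9.98 ± 2.79 FPKM, and Nfat5 and Nfatc4 were below the filter.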
